A study of Homo sapiens with 12 samples.

Results

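The genes described here make, carry or use lipoic acid in mitochondria. They are FDX1, FDX2, FDXR, LIAS, LIPT1, DLAT, DLST, DBT, DLD and GCSH, chosen by name, and they are 10 of the 57773 genes in the count tables. Their RNA was measured in T47D cells, an oestrogen receptor-positive luminal breast cancer line, carrying a doxycycline-inducible short hairpin against PSMD2, a subunit of the 19S cap of the proteasome. In Lo19S cells the hairpin was switched on with 0.2 µg/ml doxycycline for 3 days, and the drug was then withdrawn for 24 h. The control cells carried the same construct and were never induced. Each state was then given the proteasome inhibitor bortezomib at 20 nM, or DMSO, for 16 h, which gave 4 groups of 3 libraries: Lo19S bortezomib, control bortezomib, Lo19S DMSO and control DMSO. Doxycycline itself and the hairpin cannot be told apart in this design. Whether the 3 libraries of a group are separate cultures is not stated in the labels. The p-values therefore rest on a spread between libraries that may be technical.

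Lipoic acid is a sulfur-containing cofactor fixed to a lysine of a few mitochondrial proteins, where it works as a swinging arm that carries reaction intermediates between active sites. Octanoyl groups from mitochondrial fatty acid synthesis are placed on GCSH, lipoyl synthase LIAS inserts the sulfur atoms with the help of iron-sulfur clusters, and LIPT1 passes the finished lipoyl group to the E2 subunits DLAT, DLST and DBT. The ferredoxins FDX1 and FDX2 are iron-sulfur electron carriers that receive electrons from NADPH through the reductase FDXR, and FDX1 is required for protein lipoylation and for killing of cells by copper ionophores such as elesclomol.

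The RNA of FDX1 rose under bortezomib while that of FDXR and LIAS fell most among the members, so the 250 bases before the start sites of these 3 genes are shown. The sequences are from RefSeq on GRCh38.p14, 5′ to 3′ on the strand of the gene, and capitals mark matches on either strand to the GC box GGGCGG, the CCAAT box CCAAT, the nuclear respiratory factor 1 motif CGCANGCG, the antioxidant response element TGACNNNGC, the heat shock element GAANNTTC or the ATF4 motif TGATGNAA. FDX1 lies on the plus strand at chr11:110429698-110429947, FDXR on the minus strand at chr17:74872995-74873244 for the first start site listed, and LIAS on the plus strand at chr4:39458806-39459055.
FDX1: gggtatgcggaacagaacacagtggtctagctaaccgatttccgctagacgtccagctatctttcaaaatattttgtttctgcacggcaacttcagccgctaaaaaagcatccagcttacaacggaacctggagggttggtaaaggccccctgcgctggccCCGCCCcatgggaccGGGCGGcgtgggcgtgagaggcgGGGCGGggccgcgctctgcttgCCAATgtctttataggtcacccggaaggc
FDXR: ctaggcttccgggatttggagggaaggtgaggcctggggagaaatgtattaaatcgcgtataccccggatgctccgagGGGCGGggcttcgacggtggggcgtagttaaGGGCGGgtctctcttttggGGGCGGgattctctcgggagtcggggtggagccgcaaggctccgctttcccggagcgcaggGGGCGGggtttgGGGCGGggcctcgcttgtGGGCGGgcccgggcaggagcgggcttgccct
LIAS: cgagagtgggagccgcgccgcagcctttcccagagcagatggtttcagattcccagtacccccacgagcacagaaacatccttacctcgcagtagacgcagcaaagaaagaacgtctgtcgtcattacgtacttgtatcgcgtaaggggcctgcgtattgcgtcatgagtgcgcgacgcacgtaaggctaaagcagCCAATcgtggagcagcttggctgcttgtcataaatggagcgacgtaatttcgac
The FDX1 window held 3 GC boxes and 1 CCAAT box, the FDXR window 6 GC boxes, and the LIAS window 1 CCAAT box and no GC box. A GC box was found in 7 of the 10 member windows, against 42.6% of 35116 RefSeq windows of the same length, and a CCAAT box in 4 of the 10, against 32.0%. These counts use the first start site listed for each member, and the windows of the second start sites listed for FDXR and DLD held 1 CCAAT box each. An antioxidant response element was found in 1 member window, that of GCSH, against 10.9% of all windows. The nuclear respiratory factor 1 motif was also found in 1, that of LIPT1, against 8.7% of all windows. The heat shock element, present in 5.8% of all windows, and the ATF4 motif, present in 3.1%, were found in 0 of the 10. These are letter matches in short windows and describe no binding.

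The 12 libraries held 7376597 to 15003480 counts, and 14714 genes passed the filter on low counts. The hairpin target checked the labels: PSMD2 averaged 542 ± 3.29 CPM (counts relative to the TMM-scaled library total) in Lo19S bortezomib libraries and 1516 ± 10.5 in control bortezomib libraries, and 185 ± 3.34 in Lo19S DMSO libraries and 406 ± 12.8 in control DMSO libraries (SD, n = 3 each). Luminal markers summed to 3887 to 4062 CPM in Lo19S bortezomib libraries, 3928 to 4011 in control bortezomib libraries, 6192 to 6283 in Lo19S DMSO libraries and 6963 to 7053 in control DMSO libraries, with 9 of 9 genes detected in every group. The 3 endothelial markers found summed to at most 0.372 CPM in any library, and the 6 fibroblast markers to 44.1 to 47.1 CPM in Lo19S bortezomib, 63.5 to 69.7 in control bortezomib, 33.0 to 33.8 in Lo19S DMSO and 26.0 to 31.4 in control DMSO libraries. Of the fibroblast markers, COL1A1 and LUM passed the filter on low counts. The part of these marker changes in the results below was not tested. One library, control DMSO replicate 3, differed from the other libraries of its group more than replicates did elsewhere: the chi-square of its counts over the degrees of freedom was 3.64 and 3.99, and 1.15 to 1.90 for the remaining pairs of replicates. In bulk RNA, fewer cells of a kind and less RNA per cell cannot be told apart.

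Most genes moved under bortezomib. edgeR's quasi-likelihood test at an adjusted p below 0.05 called 77.5% of genes tested in Lo19S cells (37.8% higher, 39.7% lower) and 81.4% in control cells (39.2% higher, 42.2% lower), and the members' 4 calls higher and 3 calls lower of 9 tested, in each cell state, are close to that background. The median log2 fold change of the tested members was 0.15 in Lo19S cells and -0.05 in control cells, beside -0.02 and -0.04 over all genes. The scaling matters for these directions, because TMM factors were below 1 in the 6 bortezomib libraries and above 1 in the 6 DMSO libraries. With library totals in place of TMM, the median of all genes shifted by -0.29 in Lo19S cells and by -0.38 in control cells on the log2 scale. The calls then split into 25.4% higher and 53.8% lower in Lo19S cells and 25.3% higher and 57.4% lower in control cells. Directions are therefore given relative to the typical gene, and where library totals turn the sign of a value named below, or change its call, that value is given with it. Where treatment groups are said not to overlap, this is a description of single genes, given without the share of all genes that do not overlap.

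**Figure D1:**
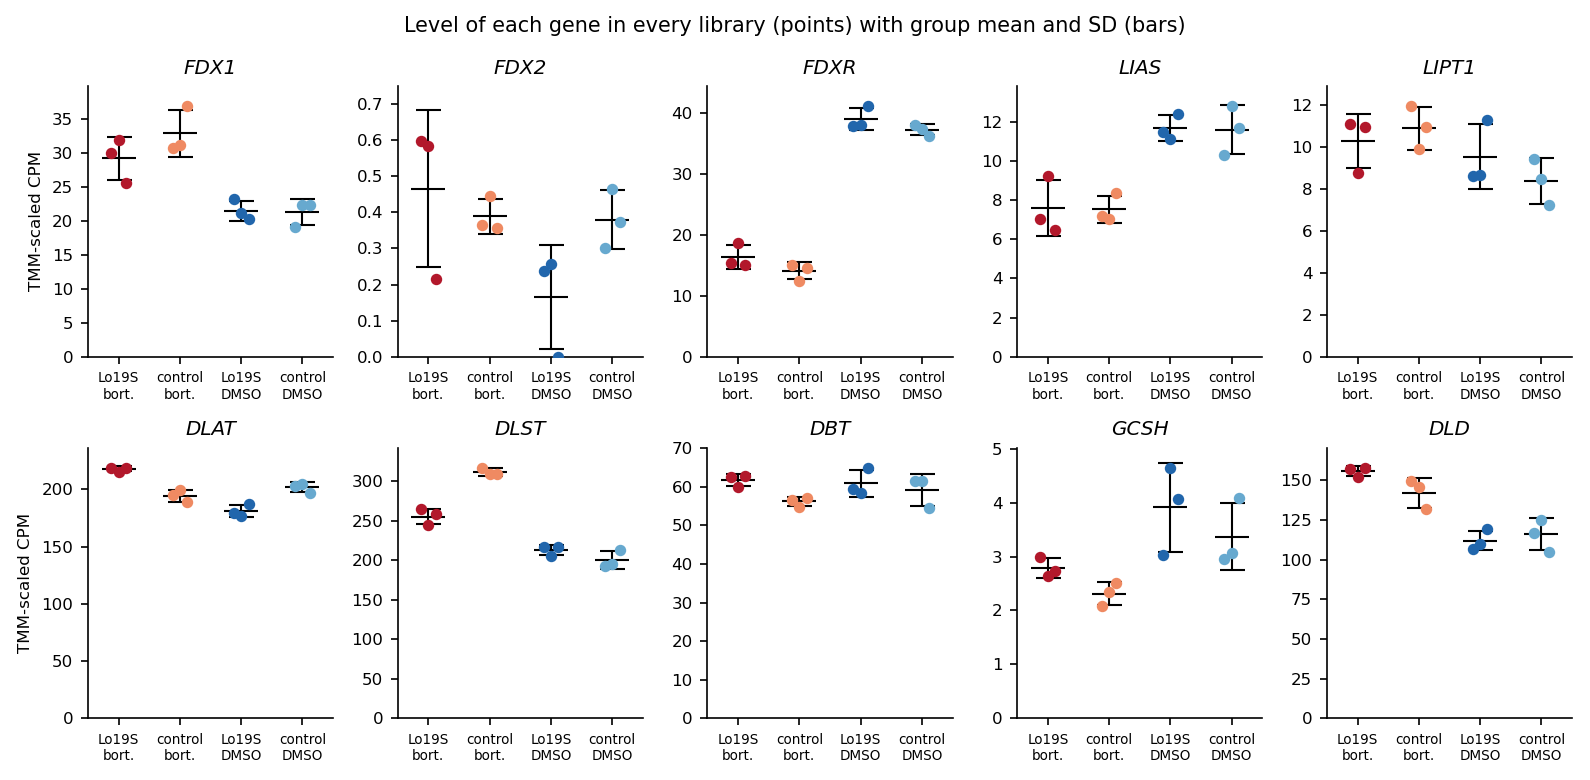
TMM-scaled CPM of the 10 genes (vertical axes, each starting at 0) in the 4 groups, with 1 point per library and bars for the group mean and SD over 3 libraries. FDXR and LIAS sit lower and FDX1, DLST and DLD higher in the bortezomib libraries than in the DMSO libraries of the same cell state, and FDX2 stays under 1 CPM throughout.

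FDX1 (ENSG00000137714), the ferredoxin that passes electrons to mitochondrial cytochromes P450 and is needed for lipoylation, had 30.0, 31.9 and 25.6 CPM in Lo19S bortezomib libraries and 23.2, 21.1 and 20.3 CPM in Lo19S DMSO libraries. The control cells had 30.7, 31.2 and 36.9 CPM under bortezomib and 19.0, 22.3 and 22.4 CPM under DMSO. In each cell state every bortezomib library lay above every DMSO library. FDX1 rose by a log2 fold change of 0.40 (SE 0.092, edgeR adjusted p = 0.000112) in Lo19S cells, a call that library totals ended (0.12, adjusted p = 0.245), and by 0.64 (SE 0.091, adjusted p = 1.99e-08) in control cells, where library totals kept it (0.26, adjusted p = 0.00912). The difference of the 2 responses, Lo19S minus control, was -0.23 (SE 0.129, adjusted p = 0.184) and was not called. Between cell states, FDX1 differed by 0.03 (SE 0.093, adjusted p = 0.848) under DMSO and by -0.20 (SE 0.089, adjusted p = 0.0632) under bortezomib, Lo19S minus control. The value under bortezomib lay near the threshold: it passed with RLE factors (-0.22, adjusted p = 0.0434) and with only the 6 libraries compared (-0.21, adjusted p = 0.023), and came to -0.09 without Lo19S bortezomib replicate 3 and -0.11 without control bortezomib replicate 3.

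FDXR (ENSG00000161513), the flavoprotein that reduces both ferredoxins, moved the other way and by the most of the 9 tested members. It had 15.3, 18.6 and 15.1 CPM in Lo19S bortezomib libraries and 37.8, 38.0 and 41.1 CPM in Lo19S DMSO libraries. In control cells it had 15.1, 12.5 and 14.6 CPM under bortezomib, against 38.0, 37.4 and 36.2 CPM under DMSO. All 6 bortezomib libraries lay below all 6 DMSO libraries, with no overlap. FDXR fell by 1.28 on the log2 scale (SE 0.085, edgeR adjusted p = 1.39e-18) in Lo19S cells, 2.42-fold, and fell by 1.41 (SE 0.090, adjusted p = 2.12e-19) in control cells, 2.65-fold, and it was called lower in all 18 other settings in both. Lo19S minus control, the difference of the responses was 0.13 (SE 0.129, adjusted p = 0.502), and FDXR differed by 0.06 (SE 0.071, adjusted p = 0.586) under DMSO and 0.19 (SE 0.108, adjusted p = 0.154) under bortezomib, which library totals brought to a called 0.30 (adjusted p = 0.0194).

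Because the electron donor and its carrier moved apart, their counts were set against each other within each library, where the scaling cancels. The log2 ratio of FDX1 to FDXR counts was 0.97, 0.78 and 0.76 in Lo19S bortezomib libraries and -0.70, -0.85 and -1.02 in Lo19S DMSO libraries. The ratio in control cells was 1.02, 1.32 and 1.33 under bortezomib and -0.997, -0.74 and -0.69 under DMSO. FDX1 thus had more counts than FDXR in all 6 bortezomib libraries and fewer in all 6 DMSO libraries. The mean ratio differed by 1.70 between treatments in Lo19S cells and by 2.04 in control cells (exact two-sided permutation p = 0.1 for each, the smallest that 3 against 3 libraries allow). Within each cell state FDX1 was higher and FDXR lower in every bortezomib library, so this p was fixed in advance. It adds no support beyond the values of the single genes. Per kilobase of exon the order of the genes also exchanged: FDX1 averaged 9.10 CPM per kb and FDXR 4.53 in Lo19S bortezomib libraries, and FDX1 6.71 and FDXR 10.8 in Lo19S DMSO libraries.

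**Figure D2:**
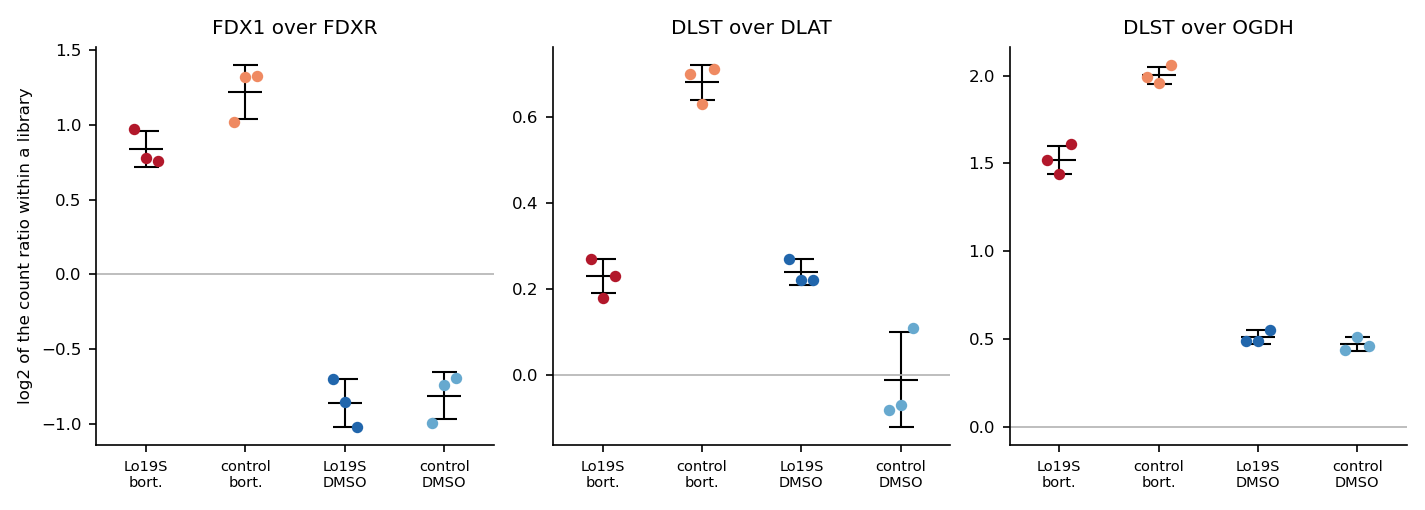
Log2 of the count ratio within each library (vertical axis) for FDX1 over FDXR, DLST over DLAT and DLST over OGDH in the 4 groups, with 1 point per library and bars for the mean and SD over 3 libraries. FDX1 over FDXR is above 0 in the bortezomib libraries and below 0 in the DMSO libraries, and DLST over DLAT is highest in control bortezomib libraries at a mean of 0.68.

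FDX2 (ENSG00000267673), the ferredoxin that serves iron-sulfur cluster assembly, could not be assessed. It held 5, 4 and 3 counts in Lo19S bortezomib libraries, 3, 4 and 3 in control bortezomib libraries, 3, 3 and 0 in Lo19S DMSO libraries and 4, 5 and 4 in control DMSO libraries, and did not pass the filter. In GENCODE 29 it overlaps 2 annotated protein-coding genes on the same strand, both with 0 counts, and how reads shared between genes were counted is not given in the sources used here. Counts this low therefore do not show that the RNA was scarce.

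LIAS (ENSG00000121897), the lipoyl synthase itself, fell with FDXR. It had 7.05, 9.22 and 6.49 CPM in Lo19S bortezomib libraries and 11.5, 11.1 and 12.4 CPM in Lo19S DMSO libraries, and in control cells 7.21, 7.02 and 8.34 CPM under bortezomib and 10.3, 12.8 and 11.7 CPM under DMSO. The treatment groups did not overlap in either cell state. LIAS fell by 0.66 (SE 0.133, edgeR adjusted p = 1.76e-05) in Lo19S cells and fell by 0.61 (SE 0.135, adjusted p = 6.45e-05) in control cells on the log2 scale, and was called lower in all 18 other settings in both. It differed by 0.01 (SE 0.116) under DMSO and -0.03 (SE 0.153) under bortezomib between Lo19S and control cells, the second of which library totals turned to 0.08, all within the spread of the libraries. The log2 count ratio of FDX1 to LIAS averaged 1.95 ± 0.15 in Lo19S bortezomib and 0.88 ± 0.16 in Lo19S DMSO libraries, and 2.13 ± 0.04 in control bortezomib and 0.88 ± 0.06 in control DMSO libraries (SD, n = 3 each). LIAS shares a stretch of the genome with RPL9 on the opposite strand, and the strand setting of the counting is not given in the sources used here. RPL9 held 9661 counts over all libraries, while LIAS held 192 to 399 per group of 3 libraries.

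LIPT1 (ENSG00000144182), the transferase that hands lipoyl groups to the E2 subunits, was low and moved little. It had 11.1, 8.78 and 10.96 CPM in Lo19S bortezomib libraries and 8.61, 8.69 and 11.3 CPM in Lo19S DMSO libraries, which overlapped, and its log2 fold change there was 0.15 (SE 0.132, edgeR adjusted p = 0.297), which library totals turned to -0.14. In control cells it had 11.97, 9.91 and 10.96 CPM under bortezomib and 9.44, 8.47 and 7.25 CPM under DMSO, a rise of 0.37 (SE 0.136, adjusted p = 0.0118) that library totals brought to -0.01. That call was also lost without control DMSO replicate 3 (0.28, adjusted p = 0.0594), without control bortezomib replicate 1 (0.31, adjusted p = 0.0696) and with no filter on low counts (0.30, adjusted p = 0.0695). LIPT1 overlaps MITD1 and TSGA10 on the opposite strand. These held 2324 and 706 counts over all libraries, while LIPT1 held 279 to 315 per group of 3 libraries.

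Among the lipoylated E2 subunits, DLST (ENSG00000119689), the succinyltransferase core of the 2-oxoglutarate dehydrogenase complex, had the largest rise in control cells, while in Lo19S cells its rise was close to that of DLAT. It had 264, 244 and 258 CPM in Lo19S bortezomib libraries and 216, 205 and 217 CPM in Lo19S DMSO libraries. DLST in control cells had 317, 309 and 309 CPM under bortezomib, above every other library, and 192, 195 and 213 CPM under DMSO. DLST rose by 0.26 (SE 0.041, edgeR adjusted p = 1.14e-07) in Lo19S cells, which library totals brought to -0.02, and by 0.64 (SE 0.040, adjusted p = 1.28e-19) in control cells, kept with library totals (0.26, adjusted p = 1.11e-07). The difference of the responses, Lo19S minus control, was -0.38 (SE 0.057, adjusted p = 1.02e-06), and it was called in all 17 other settings that could be fitted, from -0.42 to -0.28. Under bortezomib DLST was lower in Lo19S than in control cells, with a log2 difference of -0.29 (SE 0.040, adjusted p = 8.46e-08), and under DMSO it differed by 0.09 (SE 0.041, adjusted p = 0.0959). Without control DMSO replicate 3, its highest library in that group, the DMSO difference was 0.14 (adjusted p = 0.000644), and with library totals 0.11 (adjusted p = 0.0423).

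DLAT (ENSG00000150768), the acetyltransferase core of the pyruvate dehydrogenase complex, showed the opposite dependence. It had 219, 215 and 219 CPM in Lo19S bortezomib libraries and 179, 177 and 187 CPM in Lo19S DMSO libraries, with no overlap. The control values were 195, 199 and 189 CPM under bortezomib and 203, 205 and 197 CPM under DMSO, which overlapped. DLAT rose by 0.27 (SE 0.039, edgeR adjusted p = 3.11e-08) in Lo19S cells, which library totals brought to -0.02, and had a log2 fold change of -0.05 (SE 0.039, adjusted p = 0.217) in control cells, which library totals brought to a called -0.43. The difference of the responses was 0.32 (SE 0.056, adjusted p = 1.07e-05) and was called in all 17 other settings that could be fitted, from 0.30 to 0.42. DLAT was the 1 member called under DMSO: it was lower in Lo19S cells, with a log2 difference of -0.16 (SE 0.039, adjusted p = 0.00148), and under bortezomib it was higher in Lo19S cells by 0.16 (SE 0.040, adjusted p = 0.000726). Both calls held in all 18 other settings. DLAT overlaps PIH1D2 on the opposite strand, which held 938 counts over all libraries, fewer than DLAT held in any 1 library.

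Set against each other within libraries, DLST and DLAT counts had a log2 ratio of 0.27, 0.18 and 0.23 in Lo19S bortezomib libraries and 0.27, 0.22 and 0.22 in Lo19S DMSO libraries. In control cells the ratio was 0.70, 0.63 and 0.71 under bortezomib and -0.08, -0.07 and 0.11 under DMSO. The mean moved by -0.01 with bortezomib in Lo19S cells and by 0.69 in control cells, so that the responses differed by -0.70, independent of the scaling. Control DMSO replicate 3 held the highest ratio of its group. The exact two-sided permutation p was 0.9 in Lo19S cells and 0.1, the smallest possible, in control cells.

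DBT (ENSG00000137992), the E2 subunit of the branched-chain 2-oxoacid dehydrogenase, was not called in any comparison with TMM scaling. Its libraries ranged from 59.99 to 62.9 CPM in Lo19S bortezomib, 54.8 to 57.2 in control bortezomib, 58.3 to 65.0 in Lo19S DMSO and 54.4 to 61.6 in control DMSO. Its log2 fold change with bortezomib was 0.03 (SE 0.059, edgeR adjusted p = 0.648) in Lo19S cells and -0.08 (SE 0.061, adjusted p = 0.244) in control cells, while library totals gave called values of -0.26 and -0.46, close to the shift of all genes. Without control DMSO replicate 3 the control value was -0.13 (adjusted p = 0.0335). Under bortezomib it was 0.14 (SE 0.062, adjusted p = 0.0612) in Lo19S against control cells, which library totals brought to a called 0.25 (adjusted p = 0.00074).

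GCSH (ENSG00000140905), the lipoyl-carrying H protein of the glycine cleavage system and the scaffold on which lipoyl groups are built, held few counts, 17 to 54 per library. It had 2.99, 2.63 and 2.74 CPM in Lo19S bortezomib libraries and 3.03, 4.65 and 4.06 CPM in Lo19S DMSO libraries, and in control cells 2.08, 2.34 and 2.501 CPM under bortezomib and 2.95, 3.07 and 4.09 CPM under DMSO. The treatment groups did not overlap in either cell state. GCSH fell by 0.48 (SE 0.212, edgeR adjusted p = 0.0384) in Lo19S cells and fell by 0.53 (SE 0.234, adjusted p = 0.0347) in control cells on the log2 scale. Neither call was firm: DESeq2 gave adjusted p = 0.113 in Lo19S cells and 0.1 in control cells. The Lo19S call was lost without Lo19S DMSO replicate 2 (adjusted p = 0.228) or 3 (0.0797) or Lo19S bortezomib replicate 2 (0.0932) or 3 (0.113). The control call was lost without control DMSO replicate 3 (0.176) or control bortezomib replicate 1 (0.106) or 2 (0.0678). GCSH has many processed pseudogenes, and those listed held at most 3 counts in a library.

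DLD (ENSG00000091140), the dihydrolipoamide dehydrogenase that reoxidises the lipoyl arm in all these complexes, rose with bortezomib. It had 157, 152 and 158 CPM in Lo19S bortezomib libraries and 107, 110.0 and 119 CPM in Lo19S DMSO libraries, and in control cells 149.5, 146 and 132 CPM under bortezomib and 117, 125 and 105 CPM under DMSO. The treatment groups did not overlap in either cell state. DLD rose by 0.48 (SE 0.052, edgeR adjusted p = 3.37e-11) in Lo19S cells, kept with library totals (0.19, adjusted p = 0.000805), and by 0.29 (SE 0.052, adjusted p = 2.63e-06) in control cells, which library totals brought to -0.09. The difference of the responses was 0.19 (SE 0.074, adjusted p = 0.051), just outside the threshold, but 0.26 (adjusted p = 0.000104) without control DMSO replicate 3 and 0.28 (adjusted p = 0.00267) with library totals. Under bortezomib DLD was higher in Lo19S cells by 0.13 (SE 0.052, adjusted p = 0.0346), a call lost with RLE factors (0.12, adjusted p = 0.0645), with DESeq2 (0.12, adjusted p = 0.133), and without control bortezomib replicate 3 (0.08) or Lo19S bortezomib replicate 1 (0.13) or 3 (0.12). Under DMSO its difference was -0.06 (SE 0.052, adjusted p = 0.495), and -0.12 (adjusted p = 0.0214) without control DMSO replicate 3. DLD overlaps LAMB1 on the opposite strand, which held 11513 counts over all libraries, while DLD held 3640 to 4550 per group of 3 libraries.

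**Figure D3:**
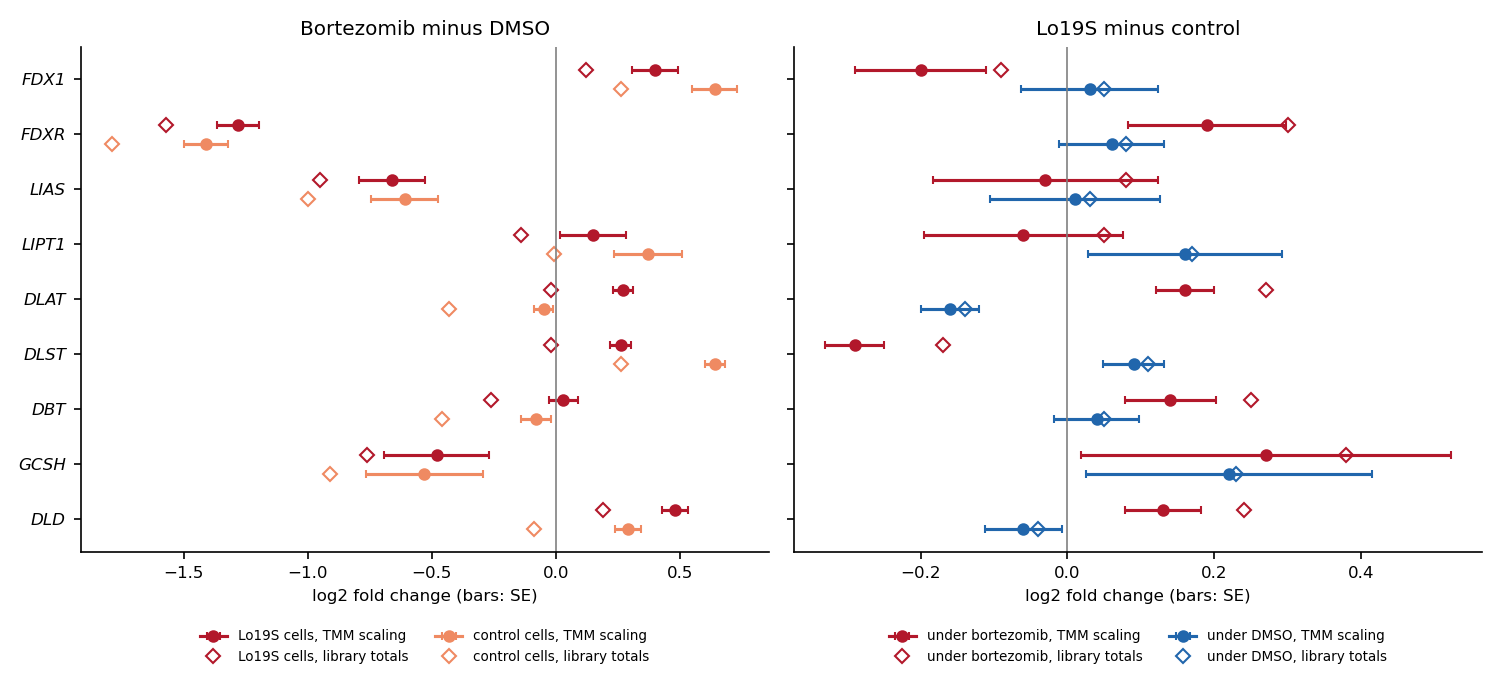
Log2 fold changes (horizontal axes) of the 9 tested genes for bortezomib minus DMSO (left) and Lo19S minus control (right), with filled points and SE bars for TMM scaling and open diamonds for library totals. The diamonds of the bortezomib comparisons lie to the left of the points, FDXR and LIAS stay below 0 under both, and DLAT and DLST lie on opposite sides of 0 on the right.

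Between cell states fewer members were called than between treatments. Under DMSO, of the 9 tested members 0 were called higher, against 11.7% of all genes tested, and 1 lower (DLAT), against 13.0%, with 24.7% of genes called in either direction. One further member, DLST, was higher there at an unadjusted edgeR p below 0.05, and DESeq2 also called 0 members higher. Without control DMSO replicate 3, DLST was called higher and DLAT and DLD lower in Lo19S cells. Over all genes, leaving out 1 library at a time gave 2840 to 4603 calls there, against 3628 with all libraries. Under bortezomib, 2 members were called higher in Lo19S cells (DLAT and DLD), against 22.0% of genes, and 1 lower (DLST), against 21.2%, with 43.1% called in either direction. Library totals called 33.4% of genes higher and 12.8% lower there, and shifted the median of all genes by 0.11. For the difference of the bortezomib responses, 1 member was called with a more positive response in Lo19S cells (DLAT), against 14.4% of genes, and 1 with a more negative one (DLST), against 13.4%, with 27.8% called in either direction; library totals gave 22.6% and 8.54% of genes. With TMM scaling, the members' shares are near or under the backgrounds. With library totals, FDXR and DBT joined DLAT and DLD as called higher under bortezomib, a larger share than the 33.4% of genes.

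Per kilobase of annotated exon, the members spanned a wide range. In control DMSO libraries DLST averaged 43.9 and DLAT 41.7 CPM per kb, with overlapping libraries, followed by DLD at 21.9, FDXR at 10.3, FDX1 at 6.63, DBT at 5.23 and LIPT1 at 3.68, and the libraries of these neighbours did not overlap. LIAS at 0.987, GCSH at 0.916 and FDX2 at 0.277 came last, and LIAS and GCSH overlapped. In Lo19S bortezomib libraries DLST averaged 56.1, DLAT 45.0 and DLD 29.4 CPM per kb, FDX1 came next at 9.10, DBT at 5.47, FDXR at 4.53 and LIPT1 at 4.51, and the FDXR and LIPT1 libraries overlapped. These lengths are unions of all annotated exons in GENCODE 29, which can be longer than a single transcript.

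The partner subunits that make up the complexes with the lipoylated E2s mostly fell. Of 9 tested of 10 listed, 1 rose and 7 fell with bortezomib in Lo19S cells and 1 rose and 8 fell in control cells, with median log2 fold changes of -0.78 in Lo19S cells and -1.05 in control cells, beside -0.02 in Lo19S cells and -0.04 in control cells over all genes. Of all genes tested, 37.8% rose and 39.7% fell in Lo19S cells and 39.2% rose and 42.2% fell in control cells. PDHX, the structural partner that binds DLD to the pyruvate dehydrogenase core, was the one that rose, by 0.61 (SE 0.055, edgeR adjusted p = 4.9e-14) in Lo19S cells and 0.58 (SE 0.055, adjusted p = 1.22e-13) in control cells. DHTKD1, an E1 subunit of 2-oxoadipate oxidation, had 74.3, 82.4 and 81.8 CPM in Lo19S bortezomib and 277, 268 and 267 CPM in Lo19S DMSO libraries, and fell by 1.77 (SE 0.046, adjusted p = 7.1e-35). DHTKD1 in control cells had 77.1, 68.0 and 72.9 CPM under bortezomib and 374, 366 and 349 CPM under DMSO, and fell by 2.32 (SE 0.046, adjusted p = 5.84e-40). BCKDHB, an E1 subunit of the branched-chain complex, fell by 1.75 (SE 0.118, adjusted p = 1.74e-18) in control cells and had -0.95 (adjusted p = 1.6e-12) in Lo19S cells. AMT, the aminomethyltransferase of glycine cleavage, fell by 1.30 (SE 0.265, adjusted p = 2.65e-05) in Lo19S cells. In control cells AMT had -0.76 (adjusted p = 0.0264), a call lost without control bortezomib replicate 1, among others (-0.45, adjusted p = 0.207). The difference of the AMT responses was not called (-0.54, adjusted p = 0.388).

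Within libraries, E2 counts were set against those of E1 partners, and the size of the shift depended on the partner. The log2 count ratio of DLST to OGDH, the E1 of the same complex, averaged 1.52 ± 0.08 in Lo19S bortezomib and 0.51 ± 0.04 in Lo19S DMSO libraries, and 2.001 ± 0.05 in control bortezomib and 0.47 ± 0.04 in control DMSO libraries (SD, n = 3 each). That of DLAT to PDHB, the E1 beta subunit of pyruvate dehydrogenase, averaged 1.65 ± 0.11 in Lo19S bortezomib and 0.60 ± 0.05 in Lo19S DMSO libraries, and 1.83 ± 0.05 in control bortezomib and 0.57 ± 0.04 in control DMSO libraries. The ratio of DLAT to PDHA1, the E1 alpha subunit, moved far less: it averaged 0.38 ± 0.09 in Lo19S bortezomib and 0.11 ± 0.02 in Lo19S DMSO libraries, and 0.28 ± 0.02 in control bortezomib and 0.12 ± 0.03 in control DMSO libraries. In none of these ratios did bortezomib and DMSO libraries overlap, a description given without the share of other gene pairs that do not overlap. For the difference of the responses, 4 of the 9 partner subunits were called, all with a less negative response in Lo19S cells, against 14.4% of all genes with a more positive one; the largest were BCKDHB at 0.81 (SE 0.159, edgeR adjusted p = 9.01e-05) and DHTKD1 at 0.56 (SE 0.067, adjusted p = 4.73e-09). Under bortezomib 4 were higher in Lo19S cells, against 22.0% of all genes, among them BCKDHB by 1.10 (SE 0.133, adjusted p = 2.08e-09) and PDHB by 0.36 (SE 0.061, adjusted p = 3.51e-06). The OGDH call (0.18, edgeR adjusted p = 0.00562) was lost without control bortezomib replicate 3 (0.15, adjusted p = 0.0521). The DHTKD1 call (0.13, adjusted p = 0.0419) was lost without Lo19S bortezomib replicate 2 or 3, or control bortezomib replicate 2 or 3. Under DMSO 2 were higher in Lo19S cells (AMT and BCKDHB), against 11.7% of all genes, and 4 lower (DHTKD1, GLDC, PDHA1 and PDHB), against 13.0%, though the calls of BCKDHB (0.24, adjusted p = 0.0732) and PDHA1 (-0.13, adjusted p = 0.0575) were lost without Lo19S DMSO replicate 1 and that of AMT without control DMSO replicate 2 (0.55, adjusted p = 0.0905). BCKDHA was near 0 counts in every group and was not tested.

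The genes that feed octanoyl groups to this route included LIPT2, the octanoyltransferase that acts before LIAS, and the mitochondrial fatty acid synthesis enzymes. Of 7 tested of 8 listed, 1 rose and 4 fell with bortezomib in Lo19S cells and 1 rose and 5 fell in control cells. Their medians were -0.55 in Lo19S cells and -0.70 in control cells. Over all genes, 37.8% rose and 39.7% fell in Lo19S cells, and 39.2% rose and 42.2% fell in control cells. LIPT2 had 0.717, 1.02 and 0.866 CPM in Lo19S bortezomib and 2.87, 2.75 and 3.42 CPM in Lo19S DMSO libraries, and 0.122, 0.445 and 0.357 CPM in control bortezomib and 3.85, 3.82 and 1.86 CPM in control DMSO libraries. It fell by 1.78 (SE 0.319, edgeR adjusted p = 2.37e-06) in Lo19S cells and fell by 3.31 (SE 0.410, adjusted p = 5e-10) in control cells, from few counts. CBR4, a subunit of the ketoacyl reductase, fell by 1.18 (SE 0.087, adjusted p = 6.13e-17) in Lo19S cells and fell by 1.80 (SE 0.097, adjusted p = 3.84e-22) in control cells. NDUFAB1, the acyl carrier protein, rose by 0.34 (SE 0.042, adjusted p = 5.37e-10) in Lo19S cells and 0.28 (SE 0.044, adjusted p = 9.91e-08) in control cells, which library totals brought to 0.06 (adjusted p = 0.225) in Lo19S cells and to a called -0.10 (adjusted p = 0.0339) in control cells. Under bortezomib 5 of 7 were higher in Lo19S than in control cells, against 22.0% of all genes; LIPT2 was higher by 1.42 (SE 0.568, adjusted p = 0.0383) and HSD17B8, the other reductase subunit, by 0.71 (SE 0.096, adjusted p = 2.7e-08). The LIPT2 call was lost without control bortezomib replicate 1 (1.07, adjusted p = 0.165) or 3 (0.067), or Lo19S bortezomib replicate 2 (0.0803) or 3 (0.097). OXSM, the ketoacyl synthase, was higher in Lo19S cells under bortezomib by 0.48 (SE 0.082, adjusted p = 3.75e-06), and its difference of 0.20 (adjusted p = 0.0374) under DMSO was lost without control DMSO replicate 3 (0.15, adjusted p = 0.114), as without 3 other libraries. Without control DMSO replicate 3, the genes of this list called for the difference of the responses were 4, against 2 with all libraries. LIPT2 (1.79, adjusted p = 0.0117) and OXSM (0.32, adjusted p = 0.0118) were added. Over all genes, leaving out 1 library at a time gave 3408 to 4981 calls for this difference, against 4094 with all libraries.

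**Figure D4:**
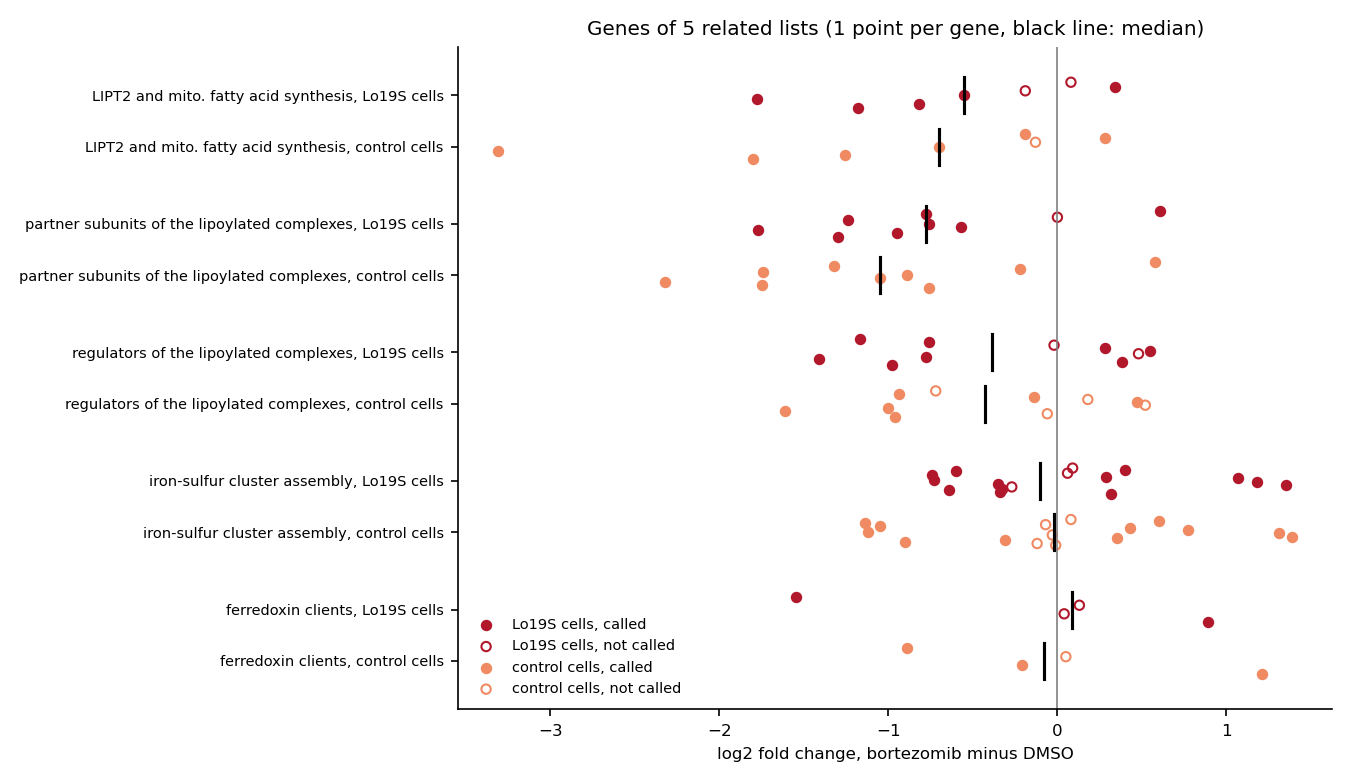
Log2 fold change with bortezomib (horizontal axis) of each tested gene in 5 related lists, in Lo19S cells (upper line of each pair) and control cells (lower line), filled where edgeR called the gene, with a black line at the median. With TMM scaling, the partner subunits have medians of -0.78 in Lo19S cells and -1.05 in control cells, while the iron-sulfur cluster assembly genes spread on both sides of 0.

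Iron-sulfur cluster assembly supplies the clusters of LIAS and the ferredoxins. Of 16 genes tested, 6 rose and 7 fell with bortezomib in Lo19S cells and 6 rose and 5 fell in control cells, with medians of -0.11 in Lo19S cells and -0.02 in control cells. These counts are close to the shares of all genes, 37.8% higher and 39.7% lower in Lo19S cells and 39.2% higher and 42.2% lower in control cells. Library totals gave 3 rises in Lo19S cells and 4 in control cells. Most of the 16 were then called lower in each cell state, beside 53.8% of all genes in Lo19S cells and 57.4% in control cells. HSPA9, the mitochondrial Hsp70, rose by 1.35 (SE 0.032, edgeR adjusted p = 2.42e-36) in Lo19S cells and 1.39 (SE 0.032, adjusted p = 3.17e-37) in control cells, and ISCA1, a late-acting assembly factor, by 1.18 (SE 0.096, adjusted p = 1.83e-15) in Lo19S cells and 1.31 (SE 0.097, adjusted p = 5.77e-17) in control cells. NFS1, the cysteine desulfurase, fell by 0.74 (SE 0.060, adjusted p = 1.95e-15) in Lo19S cells and had -1.05 (adjusted p = 1.79e-20) in control cells. ISCA2, the partner of ISCA1, fell by 0.73 (SE 0.082, adjusted p = 4.11e-11) in Lo19S cells and fell by 1.12 (SE 0.083, adjusted p = 5.18e-17) in control cells. NUBPL, an assembly factor for complex I, fell by 1.14 (SE 0.088, adjusted p = 1.85e-16) in control cells and had -0.60 (adjusted p = 2.04e-09) in Lo19S cells. ISCU, the scaffold protein, was higher in Lo19S than in control cells under bortezomib by 0.37 (SE 0.048, adjusted p = 1.8e-08). IBA57, which acts with the ISCA proteins, was lower there, with a log2 difference of -0.52 (SE 0.084, adjusted p = 1.59e-06), and HSCB, the co-chaperone of HSPA9, had -0.38 (SE 0.150, adjusted p = 0.0352), a call that ended without any of 4 libraries (adjusted p = 0.249 without control bortezomib replicate 1) and with library totals (-0.27, adjusted p = 0.138).

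Of the 10 regulators of the complexes, 3 rose and 5 fell with bortezomib in Lo19S cells and 1 rose and 5 fell in control cells, with medians of -0.39 in Lo19S cells and -0.43 in control cells. The shares over all genes were 37.8% higher and 39.7% lower in Lo19S cells and 39.2% higher and 42.2% lower in control cells. PDK2, a kinase that inhibits pyruvate dehydrogenase, fell by 1.41 (SE 0.101, edgeR adjusted p = 1.81e-17) in Lo19S cells and fell by 1.61 (SE 0.106, adjusted p = 6.63e-19) in control cells. PDK3, another of these kinases, fell by 0.78 (SE 0.101, adjusted p = 2.33e-09) in Lo19S cells and was also called lower in control cells (adjusted p = 2.09e-11). SIRT4, a mitochondrial sirtuin with lipoamidase activity, fell by 1.17 (SE 0.383, adjusted p = 0.00558) in Lo19S cells, with 4 to 21 counts per library there. That call was lost without Lo19S DMSO replicate 3 (-0.89, adjusted p = 0.0551). In control cells SIRT4 had -0.72 (adjusted p = 0.0976), a called -1.10 (adjusted p = 0.0115) with library totals. The difference of the SIRT4 responses was not called (-0.44, adjusted p = 0.622). PDP1, the opposing phosphatase, rose by 0.55 (SE 0.101, adjusted p = 3.83e-06) in Lo19S cells and 0.47 (SE 0.110, adjusted p = 0.000139) in control cells, where library totals ended the call (0.09, adjusted p = 0.45). PDK1 was the 1 regulator called for the difference of the responses, at 0.44 (SE 0.113, adjusted p = 0.00249), with a rise of 0.38 (SE 0.079, adjusted p = 3.52e-05) in Lo19S cells, ended by library totals (0.09, adjusted p = 0.305), and -0.06 (SE 0.081, adjusted p = 0.491) in control cells, a called -0.44 (adjusted p = 2.72e-06) with library totals. With library totals PDP1 was the 1 regulator called higher in Lo19S cells, and 0 were in control cells. Of all genes, library totals called 25.4% higher in Lo19S cells and 25.3% in control cells.

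The proteins that ferredoxins supply with electrons, listed together with COX10, were mostly out of range here. Of the 9 genes listed, 4 were tested, and the mitochondrial P450s CYP11A1, CYP11B1, CYP11B2, CYP24A1 and CYP27C1 held 0 to 8 counts per group. COX10 makes the haem O that COX15 converts to haem A and is not itself known to take electrons from ferredoxin. It had 34.0, 29.7 and 29.7 CPM in Lo19S bortezomib and 18.01, 16.1 and 15.8 CPM in Lo19S DMSO libraries, a rise of 0.89 (SE 0.089, edgeR adjusted p = 1.11e-12), and rose by 1.21 (SE 0.086, adjusted p = 1.34e-17) in control cells. COX15, the haem A synthase that takes electrons from ferredoxin, had a log2 fold change of 0.04 (SE 0.041, adjusted p = 0.388) in Lo19S cells, a called -0.25 (adjusted p = 4.73e-07) with library totals, and fell by 0.21 (SE 0.043, adjusted p = 2.18e-05) in control cells, with a difference of the responses of 0.25 (SE 0.060, adjusted p = 0.00111). CYP27B1, the vitamin D 1-alpha-hydroxylase, held 2, 8 and 11 counts in Lo19S bortezomib and 21, 25 and 26 in Lo19S DMSO libraries, and fell by 1.55 (SE 0.375, adjusted p = 0.000246) in Lo19S cells. It fell by 0.89 (SE 0.360, adjusted p = 0.0222) in control cells, which was -0.51 (adjusted p = 0.225) without control DMSO replicate 3, and the call was also lost without control bortezomib replicate 2 (-0.85, adjusted p = 0.0641) or 3 (-0.82, adjusted p = 0.0671).

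The 5 genes whose levels over the 12 libraries were most like those of FDX1, by Pearson's r of log2 CPM, were PGRMC1 (0.956), DGKD (0.955), DNPEP (0.955), EIF3G (0.952) and CMIP (0.952). PGRMC1 averaged 125 CPM in Lo19S bortezomib, 145 in control bortezomib, 84.2 in Lo19S DMSO and 87.4 in control DMSO libraries. FDX1 lay higher in every bortezomib library than in any DMSO library, so these values may mostly describe a shared step between treatments. Among the members, FDX1 had an r of 0.89 with DLST and 0.70 with DLD, and of -0.89 with FDXR, -0.72 with GCSH and -0.70 with LIAS over the same libraries.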

How the data were processed

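RNA of 12 libraries from T47D cells was sequenced from stranded poly(A) preparations, per the labels' protocols. Per the submitters' processing notes, reads were aligned with STAR 2.5.4b to GRCh37 and counted with featureCounts 1.6.1, with strand and multi-mapping settings not given in the sources used here. The authors deposited raw counts per gene for each library, with 57773 identifiers, of which 51996 were matched to a symbol. Overlapping genes and exon lengths came from GENCODE 29.

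Counts were tested with edgeR 4.0.16 (robust quasi-likelihood, R 4.3.3) after its group-based filter on low counts and TMM scaling, with 1 coefficient per group over all 12 libraries and Benjamini-Hochberg adjustment over 14714 genes; genes at an adjusted p below 0.05 were called. SEs are the log2 fold change over the root of the F statistic. CPM values are counts relative to the TMM-scaled library total. The fit was tested on simulated data. The 18 other settings were RLE factors, library totals, DESeq2 1.42.0, no filter, a replicate block, only the libraries compared, and leaving out each library. Single ratios were compared by exact permutation. Depth limits LIAS, LIPT1, GCSH and FDX2 most.

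The members and the 5 related lists were chosen with earlier results of these data known. The text names all 10 members, PSMD2, up to 2 called genes with the largest rise and 2 with the largest fall per related list and comparison, and the 5 genes most like FDX1; other genes named were chosen after their values were seen.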

Additional observations from a re-analysis of the deposited data

Results flagged for a closer look

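DLAT and DLST stood out because their bortezomib responses differed between the cell states, and in opposite directions. For DLAT the response in Lo19S cells minus that in control cells was 0.32 on the log2 scale (SE 0.056, edgeR adjusted p = 1.07e-05), with 3 of 3 Lo19S bortezomib libraries above all Lo19S DMSO libraries and overlapping groups in control cells. For DLST it was -0.38 (SE 0.057, edgeR adjusted p = 1.02e-06), with all bortezomib libraries above all DMSO libraries in both states. Of all genes tested, 27.8% were called for this difference, so 2 of 9 tested members is not above the background. Both differences keep their sign with library totals, at 0.42 for DLAT and -0.28 for DLST.

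Other genes named above also had bortezomib responses that differed between the cell states by the same edgeR test at an adjusted p below 0.05, Lo19S minus control on the log2 scale. The difference was -0.35 for PSMD2, the hairpin target. Among the partner subunits it was 0.81 for BCKDHB, 0.56 for DHTKD1, 0.54 for PDHB and 0.22 for PDHA1, and among the mitochondrial fatty acid synthesis genes 0.62 for CBR4 and 0.44 for HSD17B8. Among the iron-sulfur cluster assembly genes it was 0.54 for NUBPL, 0.39 for ISCA2, 0.32 for NFS1, 0.30 for ISCU, -0.32 for IBA57 and -0.62 for HSCB. It was 0.44 for PDK1 and 0.25 for COX15. Leaving out 1 library ended the call of ISCA2 (0.32, adjusted p = 0.0601, without control bortezomib replicate 1). The call of HSCB ended without that library (-0.49, adjusted p = 0.0969) or control DMSO replicate 1 (-0.54, adjusted p = 0.0599). That of IBA57 ended without any of 5 libraries, with the highest adjusted p of 0.112 without Lo19S DMSO replicate 2 (-0.26), and with library totals (-0.23, adjusted p = 0.123).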

How the results depend on the processing

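Of 801 values of single members under another setting, 734 kept their direction and side of the threshold, 19 lost a call, 21 gained one and 27 changed sign, 4 of them values that had been called. Library totals moved the members called higher to 1 for Lo19S against control under DMSO, 1 for bortezomib in Lo19S cells, 2 for bortezomib in control cells (with 5 lower), 4 for Lo19S against control under bortezomib and 2 for the difference of the responses. Over all genes, library totals called 13.2%, 25.4%, 25.3% (57.4% lower), 33.4% and 22.6% higher, in the same order. Under bortezomib, Lo19S against control, RLE factors gave 1 higher and 2 lower, DESeq2 1 higher, and the libraries of the comparison alone 2 lower. Over all genes these settings called 6376, 5390 and 6875 there, against 6349 in the main fit. No filter gave 2 higher for the difference of the responses, with 3539 genes called over all, against 4094 in the main fit. With library totals the sign turned for bortezomib in Lo19S cells in LIPT1 (-0.14), DLAT (-0.02), DLST (-0.02) and DBT (-0.26), in control cells in LIPT1 (-0.01) and DLD (-0.09), under bortezomib in LIAS (0.08) and LIPT1 (0.05), and for the difference of the responses in LIAS (0.05); with no filter it turned in LIAS under DMSO (-0.01) and in DBT with bortezomib in Lo19S cells (-0.02). The total-based turns follow from the shift of all genes; the cause of the others was not tested.

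Leaving out 1 library at a time gave 0 to 1 members higher and 1 to 2 lower under DMSO. Under bortezomib it gave 1 to 3 higher and 1 to 2 lower, and for the difference of the responses 1 to 2 higher. The calls over all genes moved too, to 2840 to 4603 under DMSO and 5368 to 7080 under bortezomib. For the difference of the responses they came to 3408 to 4981. With all libraries they were 3628, 6349 and 4094. Ranges that crossed 0 were those of FDX1 (-0.05 to 0.07), LIAS (-0.08 to 0.08) and DBT (-0.02 to 0.06) under DMSO, LIAS (-0.16 to 0.10) and LIPT1 (-0.13 to 0.02) under bortezomib, and LIAS (-0.17 to 0.09) and GCSH (-0.11 to 0.22) for the difference of the responses. The related lists were recounted after seeing the data, without control DMSO replicate 3 and with library totals. With bortezomib in control cells, library totals called 8 regulators of the complexes and most of the iron-sulfur cluster assembly genes lower, beside 57.4% of all genes.

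Same-numbered libraries did not deviate together: their deviations correlated at -0.07 to 0.03 over 18 pairs, 0 of them over 0.1. Whether same-numbered libraries were prepared together cannot be told from this, because a shared preparation need not leave a shared deviation. With the replicate number as a block, 3445 genes were called under DMSO, 11349 and 11922 with bortezomib in Lo19S and control cells, 6196 under bortezomib and 3889 for the difference of the responses, and the counts of called members were those of the fit without the block. DESeq2 called 2635 genes under DMSO, against 3628 by edgeR. FDX2 was tested only with no filter, and its value is not given.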
